A study of Mus musculus with 816 samples.

Results

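Tnf, Il6, Il10, Il12a, Il12b, Il23a, Il27 and Ebi3 encode tumour necrosis factor, interleukin 6, interleukin 10 and the subunits of the interleukin 12 family. These 8 genes were followed through a panel of mouse microglia in which 784 cultures and the microglia of 32 mice were profiled by 3′-end RNA sequencing. They were taken by gene symbol from the 45581 genes listed for the cultures and the 29858 listed for the mice. The cultures were commercial primary microglia of neonatal mice, grown in 96-well plates and exposed to a stimulus 4 days after plating. Values are CPM, the reads of a gene scaled to a common library total and not to gene length, so levels are compared between samples and never between genes.

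Untreated wells were labelled 24 h (40 cultures) or 72 h (25 cultures). Lipopolysaccharide (LPS), the bacterial endotoxin recognised by Toll-like receptor 4, was given as LPS_hi at 0.0001 µg/µl for 4 h (7 cultures), 24 h (18) or 72 h (13), and as LPS_lo at 0.00001 µg/µl for 24 h (7) or 72 h (11). Further cultures received LPS together with another agent, or 1 of the other stimuli alone or in mixes. In vivo, 4 female C57BL/6 mice of 2 months received LPS intraperitoneally at 2 mg/kg and 4 received PBS, all for 4 h, and naive male C57BL/6 mice were taken at 2 months (11 mice) and 22 months (13 mice). Mice were perfused before microglia were selected with CD11b magnetic beads, which also bind other myeloid cells. Wells are the replicates in culture, and nothing in the labels ties them to separate preparations, so p-values measure the spread between wells of 3 commercial cell lots. No culture was left untreated for 4 h, so cultures at 4 h were set against untreated wells at 24 h.

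TNF is an early trimeric cytokine that signals through TNFR1 and TNFR2, and interleukin 6 signals through its own receptor and the shared chain gp130. Interleukin 10 acts back on macrophages and microglia to limit such cytokines. The interleukin 12 family is built from paired subunits: p35 (Il12a) with p40 (Il12b) gives interleukin 12, p19 (Il23a) with p40 gives interleukin 23, and p28 (Il27) with EBI3 gives interleukin 27, so a transcript of 1 subunit does not show that the paired cytokine was made. Myeloid cells transcribe most of these genes from inducible promoters once a microbial product is sensed.

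Of the 8 genes, 5 had an entry in the RefSeq table of promoters. Those of Il6, Ebi3, Tnf and Il12b are shown for the 250 bases before the start site, because these are the members with an entry that were higher both in LPS cultures at 4 h and in LPS-injected mice. The windows are chr5:30012864-30013113 on the plus strand for Il6, chr17:55952373-55952622 on the plus strand for Ebi3, chr17:35202008-35202257 on the minus strand for Tnf and chr11:44399813-44400062 on the plus strand for Il12b, in build GRCm38.p6. Capitals mark letters that match the consensus of NF-κB, AP-1 (TGANTCA) or C/EBP (TTGCNNAA), searched on both strands together with CRE (TGACGTCA) and the IRF motif.
Il6: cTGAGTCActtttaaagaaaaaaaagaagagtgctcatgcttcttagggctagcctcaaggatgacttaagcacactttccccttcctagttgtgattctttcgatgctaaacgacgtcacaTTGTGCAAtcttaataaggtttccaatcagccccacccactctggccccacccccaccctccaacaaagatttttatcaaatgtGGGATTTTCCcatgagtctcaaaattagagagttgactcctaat
Ebi3: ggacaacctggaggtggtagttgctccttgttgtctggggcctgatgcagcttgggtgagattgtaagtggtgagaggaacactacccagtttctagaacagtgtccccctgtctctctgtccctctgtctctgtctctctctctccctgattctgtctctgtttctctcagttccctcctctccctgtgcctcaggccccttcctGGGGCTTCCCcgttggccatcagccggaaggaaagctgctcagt
Tnf: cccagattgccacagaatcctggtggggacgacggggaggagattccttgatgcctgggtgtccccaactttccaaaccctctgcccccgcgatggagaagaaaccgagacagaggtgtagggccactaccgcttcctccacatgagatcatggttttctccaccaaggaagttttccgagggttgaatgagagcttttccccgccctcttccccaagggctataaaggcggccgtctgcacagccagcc
Il12b: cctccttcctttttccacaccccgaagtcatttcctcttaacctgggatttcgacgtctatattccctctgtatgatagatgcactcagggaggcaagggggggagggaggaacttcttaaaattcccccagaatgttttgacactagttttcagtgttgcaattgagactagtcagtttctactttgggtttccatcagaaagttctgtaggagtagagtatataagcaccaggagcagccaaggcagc
Il6 held an NF-κB match at -44 to -35, an AP-1 match at -249 to -243 and a C/EBP match on the opposite strand at -128 to -121. Ebi3 held an NF-κB match at -44 to -35. No match to these letters was found in the Tnf and Il12b windows, nor in those of the pair of Il12a start sites. Among 32851 promoter windows of the same length, 3.9% held the NF-κB letters, 6.75% AP-1, 9.56% C/EBP, 1.55% CRE and 2.98% IRF. The genes themselves lie at chr17:35199381-35202007 (Tnf), chr5:30013114-30019981 (Il6), chr1:131019845-131024974 (Il10), chr3:68690644-68698547 (Il12a), chr11:44400063-44414033 (Il12b), chr10:128296139-128298752 (Il23a), chr7:126589010-126594941 (Il27) and chr17:55952640-55957022 (Ebi3) in GRCm38.

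The members differed widely in how many conditions they were seen in. Over the 97 culture conditions with at least 3 cultures, the mean of Tnf and that of Ebi3 passed 5 CPM in all 97, that of Il27 in 57, of Il10 in 20, of Il6 in 15 and of Il12b in 11, while the means of Il12a and Il23a each passed it in 1. Tnf was above 0 in 781 of the 784 cultures, whereas Il12a and Il23a were above 0 in 62 each. The highest mean of Tnf, Il12b and Il27 was that of LPS_hi at 4 h, and the highest mean of Il12a was that of LPS_hi at 24 h. Il6 and Il23a had theirs in LPS_hi with norepinephrine at 4 h, Il10 in LPS_hi with GABA at 24 h and Ebi3 in LPS_lo with rapamycin at 24 h. Cell lot May16, in which Il10 and Ebi3 were higher with LPS at 24 h, supplied 4 of these 8 GABA and 4 of these 7 rapamycin cultures. It supplied 4 of the 18 cultures with LPS_hi alone at 24 h, and the part of lot in this order was not tested. Among the 10 highest conditions of each gene, neighbours in that order overlapped in their ranges, with the exception of Tnf between LPS_hi with nicotine and with norepinephrine, both at 4 h, and of Il27 between LPS_hi with nicotine and with ATP, both at 4 h. At the median estimated depth of 4.67 M reads a culture, 3 reads correspond to 0.642 CPM, so values near that size rest on few reads.

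Depth was estimated from the values, with the most frequent low positive value of a library taken as a single read. By this estimate it ran from 1.00 to 38.2 M reads in cultures and from 2.36 to 7.78 M in mice. Of the 12 microglial markers checked, 9 had a mean above 5 CPM in untreated cultures at 24 h. Tmem119 had a median of 14.6 CPM there, P2ry12 3.49, Sall1 0.410 and Siglech 0, so the markers that define microglia in the intact brain were low or absent in culture. In mice all 12 had means above 5 CPM. Each library came from many cells, so fewer cells of a type and less RNA per cell cannot be told apart in any value below.

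By the calls, LPS raised 7 of the 8 members at 4 h, of which Il12a and Il23a stayed near the limit of detection. The size of the rise set Il27, Tnf, Il12b and Il6 apart from the others. Tnf was between 26.2 and 410 CPM (median 89.8) in untreated cultures at 24 h and between 13384 and 25712 (median 16744) with LPS_hi at 4 h. The groups did not overlap, and the log2 fold change was 7.42 ± 0.41 (SE, adjusted p = 3.24e-58, limma with Benjamini-Hochberg adjustment over 16942 genes, as for all tests in culture). Il6 ranged from 0 to 7.12 CPM (median 0.631) in untreated cultures and from 30.7 to 151 (median 66.1) with LPS_hi at 4 h, a change of 5.22 ± 0.29 on the log2 scale (adjusted p = 4.7e-56). All 7 stimulated cultures again lay above every untreated one. Calls required an adjusted p below 0.05 and a log2 change of 1 or more in either direction, by which 29.3% of all genes were called in this comparison and 5.45% were called higher. The median log2 change of all genes tested was -0.39, a shift against which these values stand.

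The interleukin 12 family split into subunits that rose far and subunits that stayed close to the limit of detection. Il27 went from 0 to 34.5 CPM (median 5.81) in untreated cultures to 1305 to 3790 (median 2825), with no overlap, and its log2 fold change of 8.28 ± 0.45 (adjusted p = 3.65e-59) exceeded that of every other member. Il12b, the p40 subunit of interleukins 12 and 23, went from at most 3.05 CPM to 33.3 to 205 (median 83.6), a change of 6.15 ± 0.26 (adjusted p = 1.97e-85), also without overlap. Their partners moved less. Ebi3 had a median of 69.1 CPM untreated (11.9 to 196) and 283 with LPS_hi (142 to 690), with 5 of 7 cultures above the untreated range and a change of 2.17 ± 0.39 (adjusted p = 5.68e-07). Il12a, the p35 subunit, had a median of 0.931 CPM and a maximum of 7.35 with LPS_hi, and Il23a, the p19 subunit, a median of 1.55 and a maximum of 9.17, with 4 of 7 cultures above the untreated range for each. Both were called (log2 fold changes of 1.13 and 1.22, adjusted p = 1.64e-08 and 1.3e-18), but the log2(CPM + 1) scale understates changes at such levels, and 3 of the 7 cultures were at 0. They were above 5 CPM in only 17 and 11 of the 784 cultures, with their highest means in LPS groups. They passed the filter on low values (above 5 CPM in at least 4 cultures) largely through LPS cultures, and their spread was estimated over cultures mostly at 0. These p-values therefore carry no weight. With 5 in place of 1 added before the log, or in a fit of only the groups compared, neither was called. Il12b also passed the filter largely through LPS cultures, being above 0 in 245 of the 784 cultures and above 5 CPM in 77. Its 10 highest condition means were all in LPS groups, so its p-values in every culture comparison carry no weight either. The Il12b rise at 4 h was called under every alternative tried. Il10, with 0 to 5.90 CPM, was not called (0.82), but the lots differed: within lot Feb15 it was called (2.37, adjusted p = 2.6e-05), at 4.22 to 5.90 CPM, and within lot March15 it was at 0.17.

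Because time and LPS cannot be told apart in a comparison of 4 h with untreated wells at 24 h, the cultures given CCL2 or CCL7, chemokines, for 4 h served as another reference, chosen after the data were seen. Against them 6 of the 7 calls remained, with Tnf at 5.74 and Il6 at 5.20 on the log2 scale, and Il23a was no longer called (0.90).

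**Figure D1:**
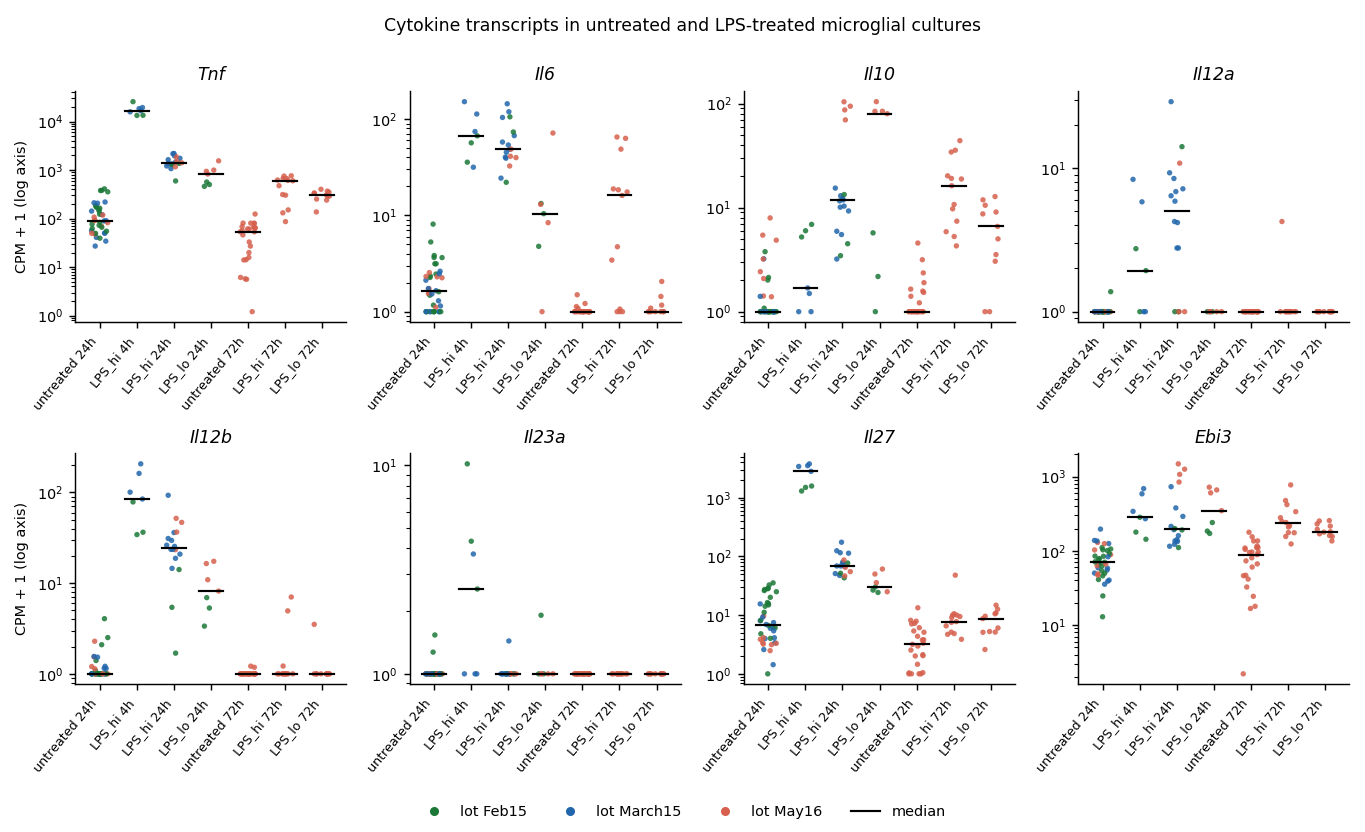
Levels of the 8 genes in single cultures, as CPM + 1 on a log axis, for untreated wells at 24 and 72 h, LPS_hi at 4, 24 and 72 h and LPS_lo at 24 and 72 h. Each point is a culture coloured by its cell lot, and bars are medians. Tnf and Il27 are highest at 4 h, with every LPS_hi culture at 4 h above every LPS_hi culture at 24 h.

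At 24 h of LPS_hi the same number of members, 7, were called higher than in untreated wells, but Il10 had joined them and Il23a had dropped out. The background was 16.2% of genes called and 5.25% called higher, and the median of all genes was -0.14. Il6 had a median of 47.7 CPM (21.1 to 143), with all 18 cultures above the untreated range and a log2 fold change of 4.92 ± 0.20 (adjusted p = 2.74e-91). Il10 was between 2.21 and 103 CPM (median 10.7) against 0 to 6.96 (median 0), a change of 3.33 ± 0.30 (adjusted p = 1.3e-24) with 13 of 18 cultures above the untreated range. Il12a reached its highest values here, with a median of 4.07 CPM and a maximum of 28, and 13 of 18 cultures lay above the untreated maximum of 0.378 (log2 fold change 2.01, adjusted p = 9.15e-47). Its mean passed 5 CPM in this condition only, so it passed the filter on low values in part through the cultures tested, and this p-value carries no weight. With 5 in place of 1 added before the log Il12a was not called. Il12b had a median of 23.5 CPM, Il27 of 67.9 and Ebi3 of 196, with log2 fold changes of 4.24, 3.27 and 2.04. Il23a was at 0 in 17 of 18 cultures.

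Set directly against 24 h of LPS_hi, the cultures at 4 h had higher Tnf, Il12b, Il23a and Il27 and lower Il10, where 14.7% of all genes were called. Il27 differed by 5.01 ± 0.49 on the log2 scale (adjusted p = 2e-20) and Tnf by 3.59 ± 0.44 (adjusted p = 3.33e-13), both with no overlap between the groups. Il6 (0.30, 95% interval -0.33 to 0.92) and Ebi3 (0.13, -0.71 to 0.96) were not called, but the cultures at 24 h include 4 of lot May16, a lot not used at 4 h. Within lot March15 Ebi3 was called higher at 4 h (1.14, adjusted p = 0.00218) and Il12a lower (-1.25, adjusted p = 1.61e-08), and within lot Feb15 they were at 0.26 and -0.47 and not called. The lower Il10 at 4 h depended on the cell lot. In lot March15 it was 0 to 0.689 CPM at 4 h (4 cultures) against 2.21 to 14.4 at 24 h (11 cultures), and called lower by -2.85, while in lot Feb15 it was 4.22 to 5.90 (3 cultures) against 2.45 to 12.4 (3 cultures), a log2 difference of 0.02. Tnf, Il12b and Il27 were called higher at 4 h within each of these lots, with Tnf at 3.50 and 4.03, Il12b at 2.25 and 3.19 and Il27 at 5.33 and 4.71.

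At 72 h, against untreated wells at 72 h, Tnf, Il6, Il10, Il27 and Ebi3 were called higher, while Il12b (median 0 CPM, at most 6.03), Il12a (at most 3.25) and Il23a (0 in all 13 cultures) were not. Here 16% of genes were called and 3.59% called higher, with a median of -0.20 over all genes. The response itself, LPS_hi against untreated, was smaller at 72 h than at 24 h for Il12b by -3.85 ± 0.29 (adjusted p = 2.07e-32), for Il6 by -2.02 (adjusted p = 9.02e-08), for Il12a by -1.85 (adjusted p = 1.98e-16) and for Il27 by -1.79 (adjusted p = 0.00789), where 5.11% of genes were called. Il12a and Il12b passed the filter on low values in part through the LPS_hi cultures at 24 h, so their p-values carry no weight. All cultures at 72 h came from lot May16, which at 24 h was on a single plate, and within that lot only the difference of Il12b was called (-4.57), with Il6 at -1.54 and Il27 at -2.54. In wells away from the plate edge 6 members were called lower, Tnf (-2.89, adjusted p = 8.76e-05) and Ebi3 (-1.81, adjusted p = 0.0211) beside these 4, with Il6 at -4.54.

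Well position moved with the 72 h values. Of the 13 LPS_hi cultures, 10 sat at an edge or corner of the plate, with Tnf between 303 and 763 CPM and Il6 between 0.0638 and 64.2, and 3 sat away from it, with Tnf between 85.8 and 150 and Il6 at 0. The untreated wells went the other way, with Tnf between 0.209 and 77.8 CPM in 15 edge or corner wells and between 55.2 and 123 in 10 others. In wells away from the edge alone, only Il10 of the 5 calls was kept (2.64, adjusted p = 0.00249), with Tnf at 0.72, Il6 at -0.05, Il27 at 0.96 and Ebi3 at 0.46, on 3 LPS_hi cultures. The part of position in the 72 h results with LPS_hi was not tested further. Untreated wells at 72 h were called lower than those at 24 h in Tnf (-1.66) and Il27 (-1.36), where 7.32% of genes were called, and neither call was made in wells away from the edge, within lot May16 or with a term for plate or library pool.

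The lower dose raised 6 members at 24 h (15% of genes called, 4.15% higher) and 4 at 72 h (8.1% called, 4.4% higher). Tnf was between 461 and 1552 CPM (median 830) at 24 h and between 136 and 402 (median 307) at 72 h, above the whole untreated range of its time point in each case. The log2 fold changes at 24 h were 2.94 for Tnf, 2.36 for Il6, 3.73 for Il10, 2.85 for Il12b, 2.17 for Il27 and 2.38 for Ebi3. Within lot Feb15 the calls of Il10 (1.00, adjusted p = 0.146) and Il27 (1.06, adjusted p = 0.103) were lost, while within lot May16 all 6 were made, with Il10 at 4.86. At 72 h they were 3.19 for Tnf, 1.96 for Il10, 1.34 for Il27 and 1.61 for Ebi3, and in wells away from the edge those of Tnf (2.15) and Il10 (1.77) were called. The higher dose gave 2.56 ± 0.32 more Il6 on the log2 scale at 24 h (adjusted p = 2.64e-11) and 1.39 more Il12b (adjusted p = 0.00136), where 0.277% of genes were called. Il12a was also called (adjusted p = 9.87e-19), with all LPS_lo cultures at 0. Il12a and Il12b passed the filter on low values in part through the LPS_hi cultures, so their p-values carry no weight. LPS_lo had no culture of lot March15 at 24 h, to which 11 of the 18 LPS_hi cultures belonged, and dose and lot are partly confounded in this comparison: within lot Feb15 Il6 was at 2.67 (adjusted p = 0.0535) and Il12b at 0.02, and within lot May16 Il6 was at 2.09 (adjusted p = 0.102) and Il12b was called at 1.59 (adjusted p = 0.0426). At 72 h Il6 (2.77) and Il10 (1.47) were called (4.88% of genes), and neither was in wells away from the edge.

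The lots differed in the LPS response of Il10 and Ebi3. With LPS_hi at 24 h, Il10 was 68.6 to 103 CPM in the 4 cultures of lot May16 and 2.21 to 14.4 in the 14 cultures of the other lots. With LPS_lo it was 78.9 to 103 CPM in the 4 cultures of May16 and 0 to 4.72 in the other 3. The groups of lots did not overlap at either dose, and in untreated wells Il10 was 0.390 to 6.96 CPM in 8 cultures of May16 and 0 to 2.77 in 32 others. Ebi3 with LPS_hi was 846 to 1488 CPM in May16 and 110 to 731 in the others. A test of whether the LPS response differed between May16 and the other lots, chosen after the data were seen, called Il10 at both doses (2.01 and 3.85 on the log2 scale, adjusted p = 0.00865 and 2.11e-05) and Ebi3 at the higher dose (2.35, adjusted p = 0.000831), where 2.64% and 1.79% of 11849 genes were called. Tnf was not called at the higher dose (0.50, adjusted p = 0.748) or the lower (1.48, unadjusted p = 0.0343, adjusted p = 0.329), though with LPS_lo its 4 May16 cultures, at 830 to 1552 CPM, lay above the other 3, at 461 to 567. Ebi3 at the lower dose was not called (1.28, adjusted p = 0.316), with 348 to 722 CPM in May16 against 171 to 240. May16 was on 1 plate at 24 h, so lot and plate cannot be told apart.

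**Figure D2:**
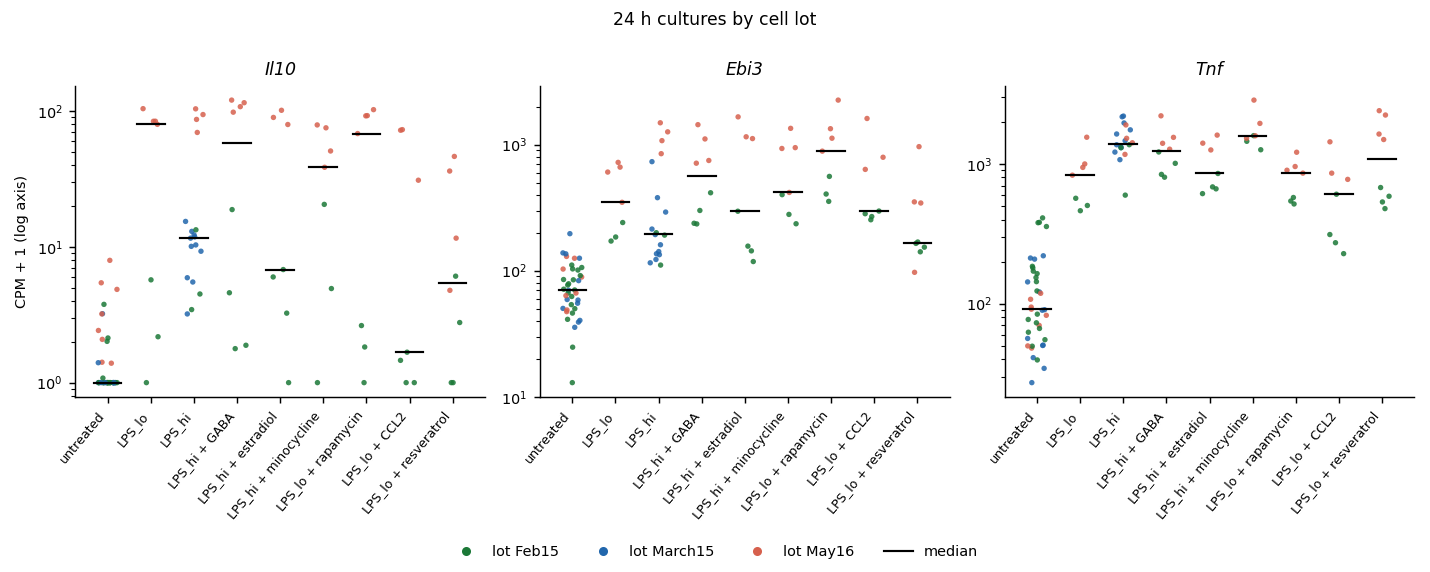
Il10, Ebi3 and Tnf in single cultures at 24 h, as CPM + 1 on a log axis, for untreated wells and the LPS groups, coloured by cell lot. The LPS_hi and LPS_lo cultures of lot May16 lie above those of the other lots in Il10, at 68.6 CPM or more against 14.4 or less. In Tnf the lots overlap in untreated wells and with LPS_hi but not with LPS_lo, at 830 to 1552 CPM against 461 to 567.

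Agents given together with LPS_hi for 4 h separated the members. The 3 agents gave 10 calls among the 24 tests of members, 3 higher and 7 lower, against 1.44% of all tests in these 3 comparisons. These calls include 1 of Il12a, 1 of Il23a and 3 of Il12b, whose p-values carry no weight. Norepinephrine, a catecholamine that microglia sense through adrenergic receptors, was given at 1 µM. With it Tnf was between 1834 and 6771 CPM (median 3685, 8 cultures), below all 7 cultures with LPS_hi alone, and fell by 2.29 ± 0.51 on the log2 scale (adjusted p = 0.00159). Il6 did not move with Tnf: it was between 55.7 and 246 CPM (median 96.3) and was not called (0.59, 95% interval -0.13 to 1.32).

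The interleukin 12 subunits did not move together under norepinephrine either. Il12b was between 6.91 and 31 CPM (median 19.8) and fell by 2.20 ± 0.33 (adjusted p = 6.98e-08), and Il27 was between 89.3 and 414 (median 378) and fell by 2.91 ± 0.57 (adjusted p = 0.000106). Both lay below every culture with LPS_hi alone. Il23a was called higher (1.15 ± 0.16, adjusted p = 3.49e-09), with a median of 6.46 CPM and a range of 0 to 7.34 that lay inside that of LPS_hi alone. Its mean passed 5 CPM in this condition only, so it passed the filter on low values in part through the cultures tested. Its spread, like that of Il12b, was estimated over cultures mostly at 0, so the p-values of both carry no weight. Ebi3 was not called (-0.09, 95% interval -1.06 to 0.88). Il10 rose by 2.67 ± 0.55 (adjusted p = 0.000333), from 0 to 5.90 CPM to 5.84 to 63.5 (median 12.3), with 7 of 8 cultures above the range of LPS_hi alone.

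ATP, the nucleotide that purinergic receptors on microglia detect when cells are damaged, was given at 1000 µM. Il10 was between 8.21 and 26 CPM (median 20.0, 6 cultures) and rose by 2.88 ± 0.59 (adjusted p = 0.000262), with no overlap. Il12b fell by 3.50 ± 0.36 to between 3.22 and 20.8 CPM (adjusted p = 9.32e-18), and Il27 fell by 2.63 ± 0.61 to between 282 and 494 CPM (adjusted p = 0.00217). Neither overlapped with LPS_hi alone. Il12a was at 0 in all 6 cultures and was called lower (adjusted p = 0.000668), although 3 of the 7 cultures with LPS_hi alone were also at 0. The p-values of Il12a and Il12b carry no weight here. Tnf, between 8939 and 18642 CPM (median 12877), was not called (-0.36, 95% interval -1.44 to 0.72), and the difference between norepinephrine and ATP in their effect on Tnf was not tested.

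With nicotine, a ligand of nicotinic acetylcholine receptors given at 1000 µM, Il12b was the only member called. It was between 7.91 and 42.0 CPM (median 28, 8 cultures) and fell by 1.81 ± 0.33 (adjusted p = 7.28e-05), with 6 of 8 cultures below the range of LPS_hi alone. Here too the p-value of Il12b carries no weight. Il27 was between 530 and 1449 CPM and was not called (-1.42, adjusted p = 0.267). The background of calls was 1.39% for norepinephrine, 1.85% for ATP and 1.08% for nicotine.

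The called directions of Tnf, Il10, Il12b and Il27 were seen in both lots used at 4 h. In lot Feb15, Tnf was 13384 to 25712 CPM with LPS_hi (3 cultures) and 1834 to 3498 with norepinephrine (4), and in March15 it was 15869 to 19449 (4) and 3873 to 6771 (4). Il10 with ATP was 24.3 and 26 CPM in Feb15 against 4.22 to 5.90 without, and 8.21 to 20.3 in March15 against 0 to 0.689. The agents alone for 4 h left Il10 at 2.47 CPM or less and Tnf between 36.5 and 290. All 8 nicotine cultures sat in edge or corner wells, as did 4 of the 8 with norepinephrine and 4 of the 6 with ATP, against 2 of the 7 with LPS_hi alone, and the part of position in these differences was not tested.

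**Figure D3:**
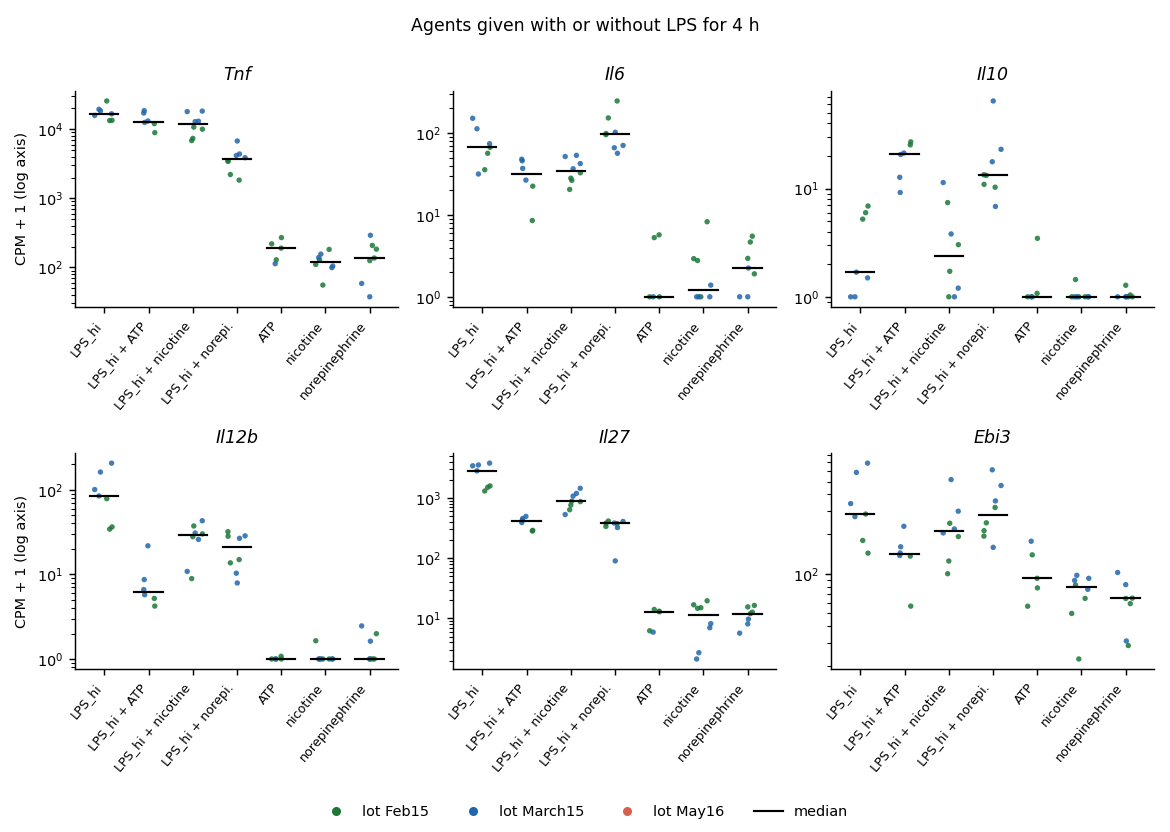
Levels of 6 members in single cultures at 4 h, as CPM + 1 on a log axis, with LPS_hi alone, LPS_hi with ATP, nicotine or norepinephrine, and each agent alone. Points are cultures and bars are medians. Il12b and Il27 are lower and Il10 is higher with ATP or norepinephrine than with LPS_hi alone, and Tnf is lower with norepinephrine, at a median of 3685 against 16744 CPM.

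At 24 h the agents added to LPS gave few calls. Estradiol (1 nM) and GABA (100 µM) with LPS_hi gave 3 calls, all lower, against a background of 0.334%: Il12b with estradiol (-1.22) and with GABA (-1.17), and Il12a with estradiol (-1.62). Within lots the Il12b values of these groups overlapped with those of LPS_hi alone. In Feb15 Il12b was 0.691 to 13.1 CPM with LPS_hi (3 cultures), 0 to 8.32 with estradiol (4) and 0 to 5.22 with GABA (4), and in May16 it was 22.4 to 50.8 (4), 35.2 to 44.4 (3) and 9.27 to 48.0 (4). Neither agent was used in lot March15, which supplied 11 of the LPS_hi cultures, at 13.5 to 92.0 CPM. With LPS_lo the single call was Il12a with rapamycin (5 nM, background 0.338%), which was 5.81, 8.98 and 9.80 CPM in the 3 cultures of Feb15 and 0 in the 4 of May16, with LPS_lo alone at 0 throughout. The p-values behind these calls of Il12a and Il12b carry no weight.

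At 72 h, interleukins and interferon given with LPS_lo moved Tnf, Ebi3, Il10 and Il27, with 9 calls over 10 agents (1.57% of all tests). IFNg (0.0001 µg/µl), the type II interferon, raised Tnf to between 649 and 1223 CPM (median 1009, 7 cultures) from between 136 and 402, a log2 change of 1.71 ± 0.48 (adjusted p = 0.0182). It raised Il27 to between 17.4 and 95 CPM (median 51.1) from between 1.60 and 13.8, a change of 2.53 ± 0.53 (adjusted p = 0.00025). Neither gene overlapped between the groups, and on each of the 2 plates that held both groups the same order was seen.

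Interleukin 10 protein (0.00005 µg/µl) lowered Tnf and Ebi3. With LPS_lo and IL10, Tnf was 32.9, 91.6, 107, 1.47 and 45.9 CPM in the 5 cultures and fell by 3.14 ± 0.53 (adjusted p = 8.1e-06), and Ebi3 was 62.9, 105, 83.5, 22.6 and 39 CPM against 135 to 255, and fell by 1.77 ± 0.51 (adjusted p = 0.0329). All 5 cultures lay below the range of LPS_lo alone for each gene. The mix of IL4, IL10 and IL13 gave Tnf of 21.9, 63.1, 31.1, 2.13 and 5.15 CPM, a fall by 4.23 ± 0.53 (adjusted p = 3.49e-12), and Ebi3 of 52.7, 80.9, 43.8, 21.5 and 25.2 CPM, a fall by 2.21 ± 0.51 (adjusted p = 0.000944). The Il10 transcript was called lower with IL10 (-1.94, adjusted p = 0.0372), with the mix (-1.88, adjusted p = 0.0243) and with IL4 (-2.26, adjusted p = 0.00701), at medians of 0 CPM against 5.59 with LPS_lo alone. IL13 gave no call by limma (0.142% of genes called), with 2 of the 8 members at an unadjusted p below 0.05 and Tnf between 58.5 and 267 CPM. Norepinephrine, given with LPS_lo for 72 h in 3 cultures, gave none either (0.543% of genes), with Tnf at 88.8, 106 and 108 CPM (-1.52, adjusted p = 0.554) and 2 of the 8 at an unadjusted p below 0.05.

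The cultures with IL10 or the mix were on 2 plates, of which only 1 also held LPS_lo alone. On that plate Tnf was 136 to 368 CPM with LPS_lo (4 cultures), 32.9 to 107 with IL10 (3) and 21.9 to 63.1 with the mix (3), and Ebi3 was 215 to 255, 62.9 to 105 and 43.8 to 80.9, so the groups did not overlap there either. With a term for plate the Il10 call with IL10 was lost (adjusted p = 0.064), and with a term for library pool the Ebi3 call with IL10 (adjusted p = 0.468) and the Il10 call with the mix (adjusted p = 0.0704) were lost too. Leaving out replicate 4 or 5 of LPS_lo with IL10 took the 9 calls to 7. The background of calls was 2.5% for IFNg, 2.34% for IL10, 5.13% for the mix and 1.88% for IL4.

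Without LPS, 12 of 36 conditions at 24 h had a call of a member, 19 in all, 10 higher and 9 lower (2.35% of all tests). P3C (0.001 µg/µl), a Toll-like receptor ligand, gave 5 of them, with 20.1% of genes called: Il6 was between 2.30 and 31.3 CPM (median 17.8, 6 cultures; log2 fold change 2.86), Il10 between 0 and 48.3 (2.53), Il12b between 0 and 12.5 (1.39) and Ebi3 between 84.0 and 663 (1.94), beside Tnf (3.23). Il27 was not called with P3C but was called with IFNg (2.23 ± 0.40, adjusted p = 1.79e-06, 8.06% of genes called), at 17.1 to 46.1 CPM (median 37.1, 9 cultures). It was also called with IC (1.72, adjusted p = 0.00109, 8.98% of genes), at 13.2 to 61.6 CPM. Il10 was called with IFNa (1.57, adjusted p = 0.00227, 11.1% of genes), at 0 to 9.37 CPM (median 4.15), and Il6 with GMCSF (1.13), at 0.880 to 9.34 CPM. Tnf was called higher with IFNg as well (1.19, adjusted p = 0.014), with all 9 cultures inside the untreated range. The 9 lower calls were Tnf with IL4 (-2.07), MPP (-2.05), nicotine (-1.81), IL13 (-1.60), Valproic Acid (-1.58), IL10 (-1.55) and TGFb (-1.33), and Il27 with IL4 (-1.20) and MPP (-1.29). With a term for culture plate or for library pool, Tnf was no longer called with IL10, IL13, TGFb and Valproic Acid, nor Il27 with IL4 and MPP, and with the pool term Tnf with nicotine was lost too. At 4 h without LPS (5 conditions, 2.7% of all tests) the single call was Tnf with CCL7 (1.72), lost with a term for plate or pool.

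At 72 h without LPS, 13 of 30 conditions had a call, 25 higher and 4 lower (6.25% of all tests). P3C, with 7.38% of genes called, raised Tnf to between 797 and 1214 CPM (median 1094, 6 cultures; log2 fold change 5.05 ± 0.45, adjusted p = 3.01e-24) and Il10 to between 6.92 and 69.2 CPM (median 43.5; 4.79 ± 0.48, adjusted p = 2.48e-19). Neither overlapped with untreated wells, and all 6 P3C cultures sat away from the plate edge, where untreated Tnf was at most 123 CPM. Il6 (1.45), between 0 and 4.71 CPM, and Ebi3 (1.94), between 174 and 321, were called too. With TNFa (0.000004 µg/µl) and P3C together the same 4 members were called as with P3C alone, and no member was called by limma between this mix and P3C alone (1.12% of genes called, Tnf -0.25, 95% interval -1.33 to 0.83), with 2 of the 8 at an unadjusted p below 0.05. With TNFa and IFNg, Tnf was between 499 and 674 CPM (4.17) and Il27 between 0 and 88.2 (median 76.0; 3.87 ± 0.44, adjusted p = 1.85e-15, 9.96% of genes called). The lower calls were Tnf with IL13 (-2.38), MPP (-2.23) and the mix of IL4, IL10 and IL13 (-2.06), and Ebi3 with that mix (-2.57).

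Prostaglandin E2 (PGE2, 0.001 µg/µl), a lipid mediator that acts through G protein-coupled receptors, changed the response to P3C. The 6 comparisons between mixes gave 8 calls (4.45% of all tests), of which a fit of only the groups compared kept 2, Tnf (adjusted p = 0.00135) and Il10 (adjusted p = 0.0163) with P3C and PGE2 against P3C. With P3C and PGE2, Tnf was between 42.1 and 392 CPM (median 184, 7 cultures), below all 6 cultures with P3C alone, and fell by 2.49 ± 0.55 (adjusted p = 0.000664, 4.23% of genes called). On the plate with 3 or more cultures of each group it was 168 to 184 CPM (3) against 1088 to 1214 (4). Il10 was between 0 and 40.2 CPM (median 1.06) and fell by 3.59 ± 0.59 (adjusted p = 4.89e-07), with 6 of 7 cultures below the range of P3C alone. Il6 was at 0 in 5 of 7 cultures and fell by 1.42 (adjusted p = 0.0133). PGE2 added to TNFa and P3C (3.7% of genes called) lowered Il10 by 2.86 (adjusted p = 0.000121) and Il6 by 1.85 (adjusted p = 0.000248). Tnf in that mix was between 327 and 783 CPM and was not called against TNFa with P3C. The Tnf call was made against P3C cultures that all sat away from the edge, and the 3 cultures with P3C and PGE2 away from it had 240 to 392 CPM, also below the range of P3C alone.

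TNFa added to IFNg (5.48% of genes called) gave more Il27 than IFNg alone (2.39 ± 0.59, adjusted p = 0.00294) and more Ebi3 (1.86, adjusted p = 0.00993), its partner in interleukin 27. On 1 of the plates Il27 was 69.0 to 88.2 CPM (4 cultures) against 20.3 to 55.8 (3), without overlap, and on the other 0 to 83.0 (4) against 0 to 3.94 (3). Position again differed, with 4 of the 6 IFNg cultures at an edge or corner, and away from the edge Il27 was 44.4 to 88.2 CPM (6) against 51.6 and 55.8. TNFa added to PGE2 gave more Ebi3 (2.10, adjusted p = 0.000412, 8.85% of genes called). In a fit of only the groups compared these 3 calls were lost, with adjusted p of 0.412 for Il27, 0.421 for Ebi3 and, with PGE2, 0.219 for Ebi3.

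**Figure D4:**
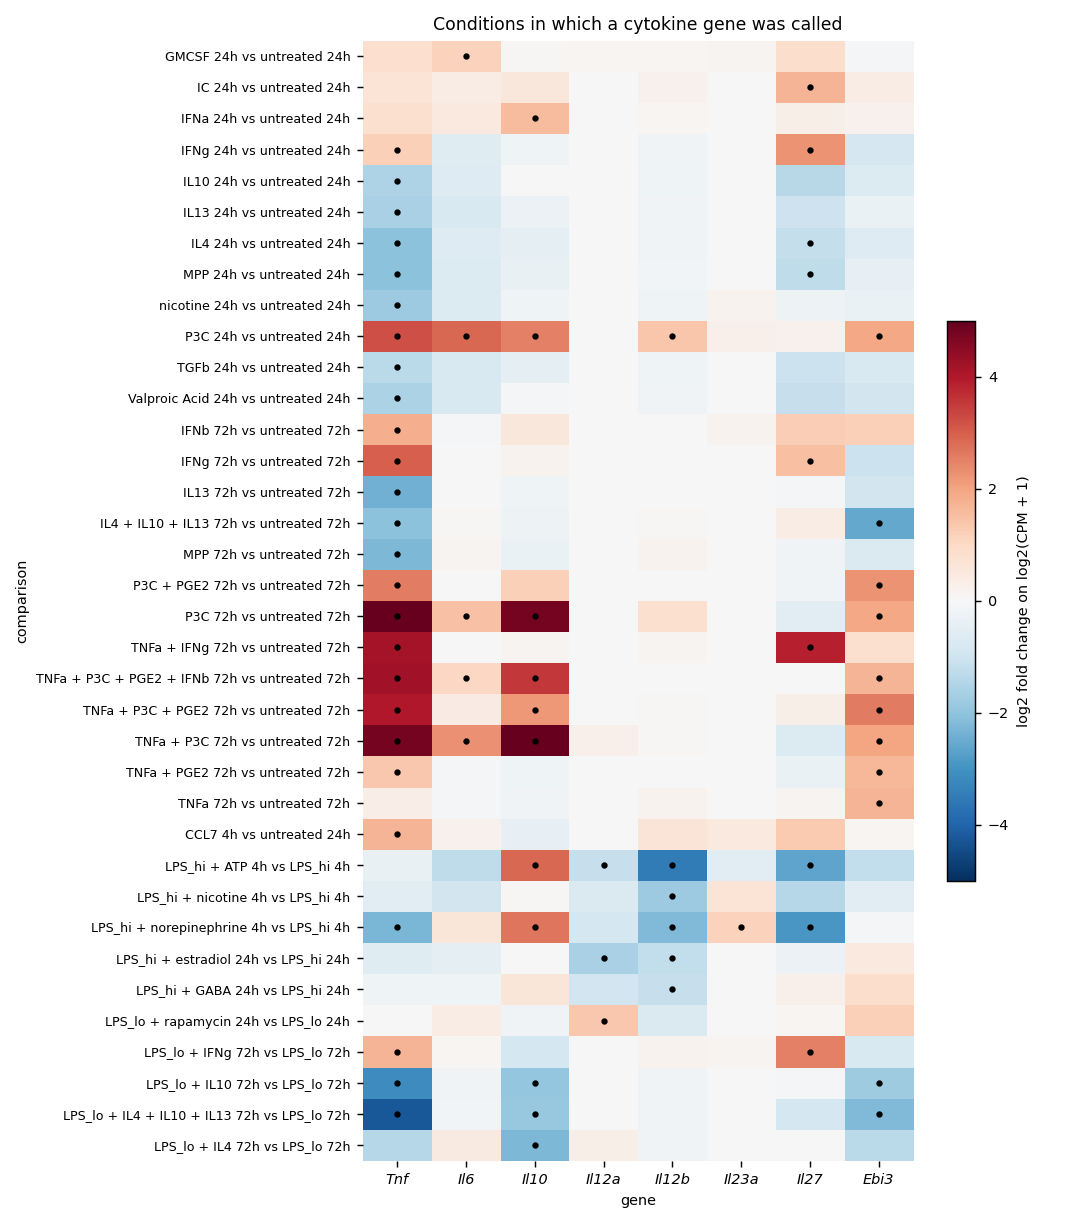
Log2 fold changes of the 8 genes in the culture conditions with at least 1 call, against untreated wells or the matching LPS group. Dots mark called values, and the colour scale ends at 5 in either direction. Against untreated wells Tnf has calls in both directions, while those of Il6 and Il10 are all higher. Il6 and Il10 were near the limit of detection in most untreated wells. Both genes had little room to be called lower there, so the lack of lower calls carries no information.

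Genes that act beside the cytokines were followed from a list of 41 receptors, signalling proteins, transcription factors and decay factors, of which 40 were tested in culture. LPS_hi raised 26 and lowered 3 at 4 h, raised 20 and lowered 3 at 24 h, and raised 15 and lowered 3 at 72 h, with medians of 1.75, 1.05 and 0.21 over the list. Over all genes tested, 5.45%, 5.25% and 3.59% were called higher at these times, and 29.3%, 16.2% and 16% in either direction. Of these 16942 genes, 4037, 1848 and 2097 were called lower. At 4 h the largest rises were Traf1, an adaptor of TNF receptors (7.02), and Socs3 (6.91) and Socs1 (6.49), which switch off cytokine receptors. The largest falls were Il6ra, the receptor of interleukin 6 (-3.25), Maf, a transcription factor known for driving Il10 (-2.99), and Il6st, which encodes gp130 (-2.82). Among 9 receptors tested, Tnfrsf1b (2.45) and Il10ra (1.85) were called higher at 4 h. At 24 h the same 3 genes led the rises, with Traf1 at 5.70, Socs3 at 5.51 and Socs1 at 5.12, and Il6st (-2.07), Il12rb2 (-2.06) and Irf8 (-1.30) the falls. At 72 h they were Socs3 (5.52), Nfkbiz (3.70) and Socs1 (3.15), and Il6st (-1.91), Il12rb2 (-1.57) and Il6ra (-1.39).

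In mice, 5 members passed the filter on low values, and LPS raised Tnf, Il27 and Ebi3 among them, where 8.33% of 9012 genes were called and 5.29% were called higher. Il12b passed the filter through the LPS mice alone and so had to differ; its values are given as a description. Tnf was 76.9, 64.8, 85.9 and 81.5 CPM in the PBS mice and 1907, 2544, 2975 and 2238 in the LPS mice, a log2 change of 4.94 ± 0.15 (adjusted p = 1.72e-11). Il12b was 0.785, 0.577, 0.198 and 0.290 CPM with PBS and 13.6, 17.5, 29.6 and 20.0 with LPS. Each LPS mouse lay above each PBS mouse in both genes. Il27 went from 18.8, 8.45, 12.1 and 7.26 CPM to 37.3, 51.8, 53.2 and 56.4 (2.07 ± 0.25, adjusted p = 3.33e-05), and Ebi3 from 67.1, 85.3, 110 and 110 to 253, 305, 266 and 217 (1.49 ± 0.17, adjusted p = 1.53e-05), so both subunits of interleukin 27 rose without overlap. Il6 went from 5.49, 3.61, 0.198 and 6.38 CPM to 11.2, 13.8, 8.52 and 13.6 (1.64 ± 0.47, adjusted p = 0.0227), and this call was lost when LPS mouse 2 or 4 was left out. Il6 passed the filter only with the LPS mice counted, so its p-value carries no weight and its values are given as a description.

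The other members were too low for the test. Il10 was 0 in all PBS mice and 4.11, 5.46, 5.37 and 6.61 CPM in the LPS mice, and Il12a was 0 with PBS and between 0.348 and 0.926 with LPS. Il23a was above 0 in 1 of the 8 mice, at 0.182 CPM. At the median estimated depth of 4.08 M reads, 3 reads are 0.735 CPM, so Il12a and Il23a were not detectable above that limit in most animals. Of the list of 41 genes, 36 were tested in mice and 18 rose and 1 fell, led by Socs3 (4.70), Nfkbiz (4.17) and Bcl3 (4.01), with Maf the one that fell (-1.75). Over all 9012 genes tested, 477 were called higher and 274 lower. The median of the list was 1.03 on the log2 scale and that of all genes -0.19.

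Markers of other myeloid cells moved with LPS in mice. The summed level of 8 neutrophil markers was 208 to 388 CPM with LPS and 99.7 to 188 with PBS, with 7 of 8 at a mean above 5 in each group, and that of 6 monocyte markers was 63.9 to 118 against 27.3 to 56.5. Ccr2, which defines inflammatory monocytes, was lower, at 1.06 to 2.86 against 5.67 to 12.2 CPM, that of 6 dendritic cell markers was higher, at 57 to 81.3 against 27 to 40.5, and the sum of 12 microglial markers overlapped (49872 to 55557 against 47802 to 59742), although P2ry12 among them was lower, at 387 to 542 against 630 to 1113. The part of these markers in the cytokine levels was not tested.

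Aging moved 1 of the 3 members tested. Tnf was between 1.42 and 27.6 CPM (median 11.3) in 11 mice of 2 months and between 5.08 and 44.2 (median 34) in 13 mice of 22 months, a log2 change of 1.35 ± 0.19 with library batch in the model (adjusted p = 6.98e-06, 1.73% of 10738 genes called). The groups overlapped over both batches. The 8 mice of the first library batch are labelled naive, but the file's column names call them vehicle, as they do the LPS and PBS mice, so a vehicle cannot be told apart from the batch. In that batch Tnf was 1.42 to 3.65 CPM (4 mice) against 5.08 to 13.4 (4), a log2 difference of 1.68 that was not called in that batch alone, and in the second it was 7.42 to 27.6 (7) against 17 to 44.2 (9), which was called. Il27 (0.45, 95% interval 0.16 to 0.74) and Ebi3 (0.15, -0.07 to 0.36) were not called. Il6 was at most 5.50 CPM, and Il10, Il12a, Il12b and Il23a had medians of 0 at both ages. The summed neutrophil markers were 401 to 4804 CPM at 22 months (median 1433) and 200 to 1423 at 2 months (median 698). Medians were also higher at 22 months for the summed markers of monocytes (234 against 107 CPM), T cells (27.3 against 8.18) and NK cells (13.5 against 4.67), and the part of these cells in the Tnf level was not tested.

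**Figure D5:**
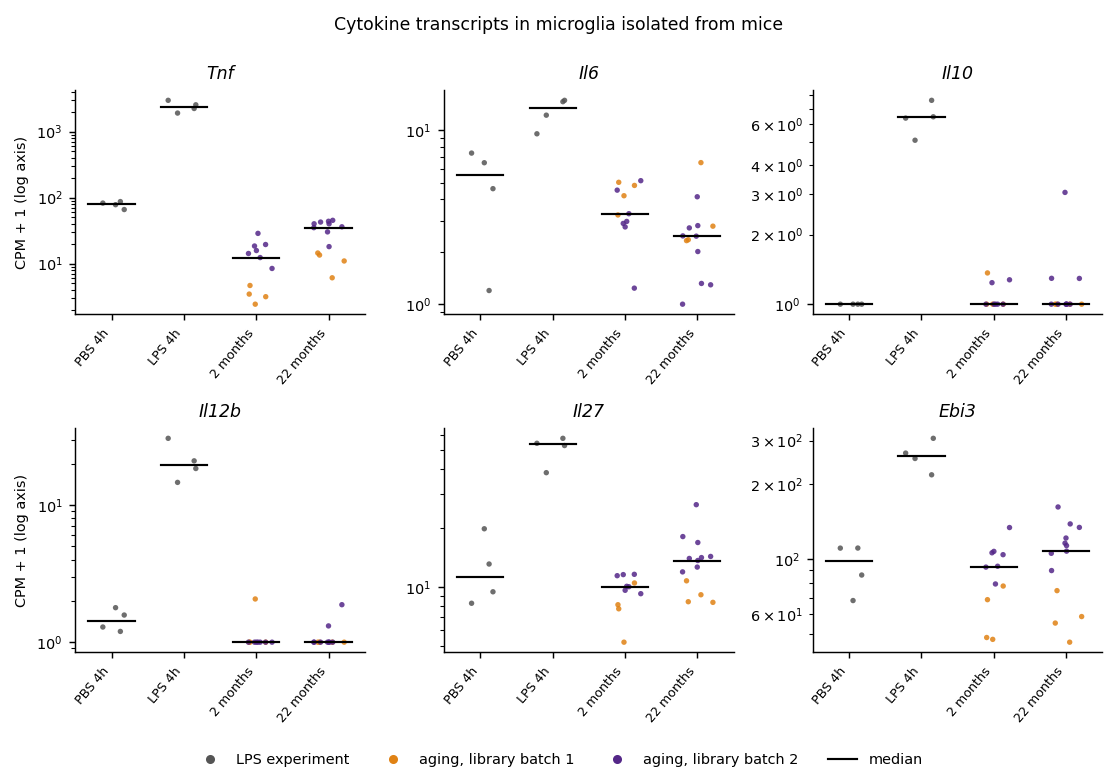
Tnf, Il6, Il10, Il12b, Il27 and Ebi3 in single mice, as CPM + 1 on a log axis, for PBS and LPS at 4 h and for naive mice of 2 and 22 months in each library batch. Points are mice and bars are medians. The LPS mice lie above the PBS mice in all 6 genes, and the range of Tnf at 22 months lies higher than at 2 months within each batch, with overlap in the second.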

How the data were processed

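Microglia were profiled as 3′-end RNA libraries in 784 cultures and 32 mice, and several libraries were pooled before amplification. The authors mapped reads with Salmon 0.7.1 (the submitters' notes also name mm8, the methods Ensembl build 81), discarded libraries under their limits on reads and genes, and deposited gene values in CPM, which the study calls TPM. Depth, estimated from the most frequent low positive value of each library, was 1.00 to 38.2 M reads in cultures and 2.36 to 7.78 M in mice. The value of 3 reads covers counting error only.

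Tests used limma 3.58.1 in R 4.3.3 (trend on mean level) on log2(CPM + 1), over genes above 5 CPM in at least 4 samples of a fit, with Benjamini-Hochberg adjustment over all genes of each comparison. Calls required an adjusted p below 0.05 and a log2 change of 1 or more in either direction. One fit held the 784 cultures (16942 genes), another the 8 LPS and PBS mice (9012 genes), and the last the 24 naive mice with library batch as a covariate (10738 genes). All 8 members passed the filter in cultures, 5 in LPS mice (not Il10, Il12a and Il23a) and 3 in naive mice (Tnf, Il27 and Ebi3). In cultures Il12a, Il23a and Il12b passed it on 17, 11 and 77 cultures above 5 CPM, largely with LPS. Their calls in culture are therefore given as a description, and their p-values carry no weight. A group with all samples at 0 was given no fold, except for Il6 in the LPS_hi wells at 72 h away from the plate edge. The method was tested on simulated pairs of groups without lots or plates, with changes only in genes at about 5 CPM or more in the reference group. That test does not cover members near 0.

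All 8 members are described. From the list of 41 pathway genes, the 3 largest rises and falls called at each time of LPS_hi and in LPS mice are named, and for each member the 3 genes with the highest rank correlation over condition means, of which 1 is not reported here. The members, the lists and the markers were chosen with earlier results of these data known. The count model of the authors was not repeated, since CPM are not counts. Promoters came from a RefSeq table of GRCm38.p6. Alternatives covered the scaling, the pseudocount (5 and 0.25), the filter, the fold minimum, the samples fitted, plate and pool terms, single lots and batches, well position and leaving out replicates.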

Additional observations from a re-analysis of the deposited data

Results flagged for a closer look

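Of 69 checks of groups of 4 to 10 samples, 7 held a sample far from the rest of its group, where chance gives about 1 in 20. In 1 corner well of LPS_hi with norepinephrine at 4 h, Il10 was highest at 63.5 CPM (next 22.1) and Il27 lowest at 89.3 (next 322). Il12b was 20.8 CPM in 1 culture of LPS_hi with ATP at 4 h (next 7.68), still below all cultures of LPS_hi alone. Il6 was 70.7 CPM in 1 culture of LPS_lo at 24 h (next 12.3). Il10 was 48.3 CPM in 1 culture of P3C at 24 h (next 14.7) and 40.2 in 1 of P3C with PGE2 at 72 h (next 2.84). Il27 was 17.1 CPM in 1 culture of IFNg at 24 h, below the next at 31.7.

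The LPS_hi response differed between 72 and 24 h by a test of the difference itself for Il6 (-2.02), Il12a (-1.85), Il12b (-3.85) and Il27 (-1.79). It differed between lot May16 and the other lots for Il10 at the higher dose (2.01) and the lower dose (3.85) and for Ebi3 at the higher dose (2.35). Outside the comparisons, a single culture labelled LPS_hi at 72 h carried the lower dose of 0.00001 µg/µl in its labels and had 23.7 CPM of Il27, above the 12.4 CPM that was the highest of the untreated wells at 72 h.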

How the results depend on the processing

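Of 131 called values, 69 were called under every alternative tried for them and 4 changed sign under at least 1. Each count below is of member calls. In wells away from the plate edge, LPS_hi at 72 h gave 1 call in place of 5, LPS_lo at 72 h 2 in place of 4, the doses at 72 h 0 in place of 2, and untreated 72 h against 24 h 0 in place of 2. There Il6 was at -0.0458 for LPS_hi at 72 h and at -0.14 between the doses, with every LPS_hi culture at 0, so these changes of sign rest on values near 0. With a plate or a pool term, untreated 72 h against 24 h gave 0 and 0, with Tnf at 0.46 and 0.67, and conditions without LPS at 4 h gave 0 and 0 in place of 1. The pool term gave 4 calls between the doses at 72 h. Within lot May16 the response at 72 against 24 h gave 1 in place of 4, untreated 72 h against 24 h 0, and the doses at 24 h 1 in place of 3. Within lot Feb15 the doses at 24 h gave 0, and Il10 at 4 against 24 h of LPS_hi was at 0.0193. A fit of only the groups compared gave 2 calls in place of 8 for the mixes, 0 in place of 3 for agents on LPS_hi at 24 h, 0 in place of 1 for agents on LPS_lo at 24 h, 1 between the doses at 24 h and 1 at 72 h. With a pseudocount of 5, agents on LPS_hi at 24 h gave 0, LPS_lo at 72 h 2, the doses at 72 h 1, untreated 72 h against 24 h 1 and conditions without LPS at 4 h 2, and these last gave 2 with a pseudocount of 0.25, 2 with no filter and 3 with no minimum fold. LPS_hi at 4 h gave 5 in place of 7 with a pseudocount of 5 and in a fit of only the groups compared, without Il12a and Il23a. LPS_hi at 24 h gave 6 in place of 7 with a pseudocount of 5, without Il12a. Aging gave 2 with no minimum fold and 0 in library batch 1 alone. The cause was not tested.

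Leaving out 1 replicate gave 3 to 5 calls in LPS mice, since Il12b was no longer tested without any 1 of the LPS mice and Il6 was lost without LPS mouse 2 or 4, 7 to 9 for agents on LPS_lo at 72 h and 28 to 30 for conditions without LPS at 72 h, where Tnf with IFNb was lost without IFNb replicate 1 or 4 and Ebi3 with TNFa without TNFa replicate 3. No paired analysis was possible because the labels give no replicate numbers, which were set in accession order. Depth limits Il12a and Il23a, whose values rest on a few reads in most libraries.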

Other observations

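Over the means of 97 culture conditions, which share plates, pools and lots, the members followed different genes, given here as Spearman correlations with no test. Tnf was most like Irg1 (0.92), Cd69 (0.88) and Adora2a (0.88), and Il6 was most like Il1a (0.87), Traf1 (0.79) and Susd2 (0.78). Il10 was most like Sprr2g (0.76), Cd69 (0.74) and Nfkbiz (0.73). Il27 was most like the interferon-induced genes Oasl1, Ifit3b and Mx1 (0.80 each), whereas Ebi3, its partner, had Hcls1 (0.73) and Rasa4 (0.73) among its 3 highest. Il12b was most like Il1a (0.71), Adora2a (0.69) and Traf1 (0.69). Il12a, with Il6 (0.58), Ifnb1 (0.57) and Il1a (0.56), and Il23a, with Edn1 (0.55), Ccl22 (0.54) and Setd1b (0.52), were at 0 in all cultures of 65 and 61 conditions.

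Among the members themselves, Tnf and Il6 had the highest correlation (0.72), and Il23a and Ebi3 the lowest (0.20). Subunits that pair in 1 cytokine had 0.42 for Il27 and Ebi3, 0.47 for Il12a and Il12b and 0.47 for Il12b and Il23a. Il12b was the member most like Il23a and, after Il6, most like Il12a, while Ebi3 was the member least like Il27. Many conditions were tied at 0 for Il12a and Il23a, which limits their values.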
